A study of Mus musculus with 7 samples.

Results

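The genes described here are 8 transcripts of mouse liver that glucocorticoid hormone is known to induce: Fkbp5, Tsc22d3, Zbtb16, Sgk1, Dusp1, Tat and the metallothioneins Mt1 and Mt2. They were chosen by symbol, and each has 1 probe set annotated with that symbol alone, out of 35556 probe sets and 19938 genes with such a probe set. The RNA came from male C57/BL6 mice kept in light and dark phases of 12 h, for which the labels give an age of 9 to 11 weeks beside the first 2 weeks of housing, before the change of feeding. For the last 7 days all animals could eat only in the dark phase, between ZT12 and ZT24. ZT, Zeitgeber time, counts hours from lights on, and ZT12 is lights off. Livers were taken every 4 h from ZT02 to ZT26, the last at the clock time of the first. For each time the RNA of 5 livers was mixed in equal amounts and hybridised to 1 Affymetrix Mouse Gene 1.0 ST array, so that every time is 1 pool with no replicate. Because feeding and darkness began together in all groups, the times of food, darkness and hormone cannot be told apart in these profiles.

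Corticosterone, the main glucocorticoid of mice, is released by the adrenal cortex in a daily wave that in nocturnal rodents climbs toward lights off and declines through the night. In the hepatocyte the hormone binds the glucocorticoid receptor, which leaves its Hsp90 chaperone complex, enters the nucleus and activates genes with glucocorticoid response elements. Metallothionein genes are also switched on by zinc, through the factor Mtf1 and metal response elements. Corticosterone itself was not measured here, and the evening is represented below only by the arrays that flank lights off, ZT10 and ZT14.

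Values are log2 signals after normalization by RMA, a method that corrects background and summarises the probes of a probe set. A level in units is the same value on the natural scale, and a probe set was tested where its mean exceeded 85 units, the expression minimum of the study's methods. All 8 genes passed. Each array correlated with the remaining 6 at a mean r of 0.991 to 0.993 over all probe sets. This r mostly reflects differences in level between probe sets, so it cannot show whether a single pool departed from the others. The 7 hepatocyte markers were all expressed, and the log2 of their summed level stayed between 16.62 and 16.66. The 7 listed Kupffer cell markers, genes of the resident liver macrophage, were all above 43 units, the background that the study's methods give, and the log2 of their summed level was lowest at ZT10 (11.80) and highest at ZT26 (12.40). In whole liver, fewer cells of a type and less RNA per cell cannot be told apart.

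Rhythm was tested by fitting a cosine with a period of 24 h to the 7 log2 values. Of the 8 genes, 2 were called rhythmic at an adjusted p under 0.05, Fkbp5 and Tsc22d3, whereas 4.47% of all 12076 tested probe sets were called. Both reached their highest fitted level in the dark phase. The other 6 did not pass, and their profiles are given as values. At an unadjusted p under 0.05 the count of the 8 genes was also 2, beside 3100 of the 12076 probe sets (25.7%). The test measures departure from a flat profile among pools and not the spread between mice.

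**Figure D1:**
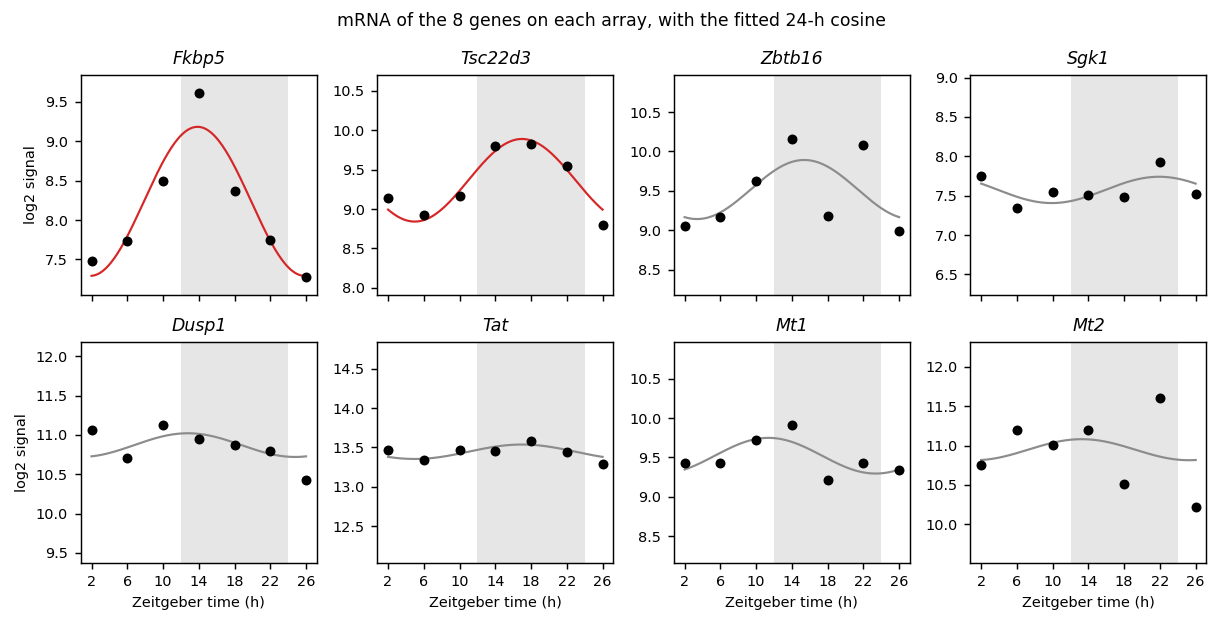
Log2 signal (vertical axis, the same span in every panel) of the 8 genes on the 7 arrays (points) against Zeitgeber time in hours, with the dark phase in grey and the fitted 24-h cosine as a line, red where the adjusted p was under 0.05. Fkbp5 forms a single sharp maximum at ZT14, Tsc22d3 a broad one at ZT14 and ZT18, and Zbtb16 and Mt2 have separate high values on either side of a low ZT18.

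Fkbp5 encodes a co-chaperone of the Hsp90 complex that lowers the affinity of the glucocorticoid receptor for its hormone. Its signal was 7.49 at ZT02, 7.73 at ZT06, 8.50 at ZT10, 9.62 at ZT14, 8.37 at ZT18, 7.74 at ZT22 and 7.28 at ZT26. It was already higher at ZT10 than at any time from ZT22 to ZT06, and ZT14 stood above every other array. In units the maximum was 785 and the minimum 155, a 5.05-fold range. The cosine had an amplitude of 0.95 ± 0.13 (SE) on the log2 scale, a 3.71-fold difference between fitted maximum and minimum, and a peak at ZT13.9 ± 0.58 h (limma's moderated F-test, adjusted p = 0.031). The point at ZT14 lay 0.43 above the fitted curve and the points at ZT10 and ZT18 lay 0.24 and 0.31 below it, so that the measured peak was narrower than a cosine. Its amplitude was larger than that of 99.5% of tested probe sets.

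Tsc22d3 encodes the glucocorticoid-induced leucine zipper protein, an anti-inflammatory regulator of transcription. Its signal was 9.14 at ZT02, 8.92 at ZT06, 9.17 at ZT10, 9.80 at ZT14, 9.83 at ZT18, 9.54 at ZT22 and 8.79 at ZT26. The 3 dark-phase arrays were the highest, and ZT10, late in the light phase, was still close to ZT02. The amplitude was 0.52 ± 0.06 (SE) in log2, a 2.07-fold fitted range, with a peak at ZT17.0 ± 0.47 h (limma, adjusted p = 0.027). The fitted peak of Tsc22d3 was thus later than that of Fkbp5, 5.0 h after lights off against 1.9 h. The difference between these peak times was not tested.

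The calls of both genes depended on single arrays and on the processing. Without 1 array, Fkbp5 kept an adjusted p under 0.05 when ZT14 (0.043) or ZT18 (0.042) was left out and lost it in the other 5 fits, with a highest value of 0.10. Its amplitude stayed between 0.70 and 1.06, and its peak between ZT13.4 and ZT14.5. Tsc22d3 kept its call without ZT26 only (adjusted p = 0.049), with a highest value of 0.105, an amplitude between 0.48 and 0.56 and a peak between ZT16.7 and ZT17.4. Both calls also ended under Fisher's test for one period, the test of the study's methods. Its adjusted p over the 12076 probe sets was 0.214 for Fkbp5 and 0.205 for Tsc22d3. Before adjustment both genes were under 0.05 by this test. The study applied the test to mRNA profiles at a looser, unadjusted cutoff joined to a minimum fold change. The lost calls therefore do not show that either gene fails the study's own selection. Both calls were lost as well with no minimum level (adjusted p = 0.0805 and 0.0712 by limma) and on natural-scale values (0.197 and 0.0614). With ZT02 and ZT26 averaged Fkbp5 lost its call (0.0817), and with a 12-h term added Tsc22d3 did (0.0732).

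Zbtb16 encodes a zinc finger transcription factor of the BTB family. Its signal was 9.05 at ZT02, 9.17 at ZT06, 9.63 at ZT10, 10.16 at ZT14, 9.18 at ZT18, 10.08 at ZT22 and 8.99 at ZT26. As for Fkbp5, ZT10 was above ZT06 and ZT14 was the highest array, but ZT22 was nearly as high as ZT14, with ZT18 back at the level of ZT06 between them. Highest over lowest was 2.25-fold, and the cosine left 0.63 unexplained at both ZT18 and ZT22, in opposite directions. The amplitude of 0.38 ± 0.20 (SE) was not past the threshold (limma, adjusted p = 0.44). It was 0.23 without ZT14 and 0.75 without ZT18, and the lowest adjusted p of any fit with an array left out was 0.069.

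Sgk1 encodes a serine/threonine kinase that regulates ion channels and transporters. Its signal was 7.75 at ZT02, 7.35 at ZT06, 7.55 at ZT10, 7.51 at ZT14, 7.48 at ZT18, 7.93 at ZT22 and 7.53 at ZT26. ZT22 and ZT02 were the highest arrays, ZT10 to ZT18 differed by under 0.1, and the range was 1.49-fold. The fitted peak at ZT21.9 ± 1.8 h had an amplitude of 0.17 ± 0.08 (SE, adjusted p = 0.42 by limma), and the amplitude was 0.07 without ZT22 and 0.26 without ZT10.

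Dusp1 encodes a phosphatase that switches off MAP kinases and belongs also to the immediate early genes. Its signal was 11.06 at ZT02, 10.71 at ZT06, 11.13 at ZT10, 10.95 at ZT14, 10.87 at ZT18, 10.80 at ZT22 and 10.43 at ZT26. It was highest at ZT10, before lights off, and lower on each later array in turn, but ZT02 was nearly as high as ZT10. ZT02 and ZT26, the same clock time, differed by 0.63, nearly the whole range of 0.69, and the amplitude was 0.15 ± 0.10 (SE, adjusted p = 0.59 by limma). Without ZT26 the amplitude was 0.06 and without ZT02 it was 0.26.

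Tat encodes tyrosine aminotransferase, the first enzyme of tyrosine breakdown and a classical glucocorticoid-induced enzyme of liver. Its signal was 13.47 at ZT02, 13.35 at ZT06, 13.46 at ZT10, 13.45 at ZT14, 13.58 at ZT18, 13.45 at ZT22 and 13.29 at ZT26. ZT18 was the highest array, the range was only 1.23-fold, and the amplitude of 0.09 ± 0.04 (SE, adjusted p = 0.36 by limma) was larger than that of 49.7% of tested probe sets.

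Mt1 and Mt2 encode small cysteine-rich proteins that bind zinc and copper. They lie next to each other between Mt3 and Nup93 in the RefSeq annotation, with starts 6471 bases apart. Mt1 had a signal of 9.43 at ZT02, 9.43 at ZT06, 9.72 at ZT10, 9.91 at ZT14, 9.22 at ZT18, 9.43 at ZT22 and 9.34 at ZT26. Only ZT10 and ZT14 stood above the rest, ZT18 was the lowest, and the range was 1.62-fold. The fitted peak lay at ZT11.4 ± 1.5 h, with an amplitude of 0.23 ± 0.09 (SE, adjusted p = 0.27 by limma). With 1 array left out, the peak moved between ZT9.3 and ZT14.2.

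Mt2 had a signal of 10.76 at ZT02, 11.20 at ZT06, 11.01 at ZT10, 11.20 at ZT14, 10.51 at ZT18, 11.61 at ZT22 and 10.22 at ZT26. The extremes were the last 2 arrays, ZT22 at 3118 units and ZT26 at 1195 units, a 2.61-fold range. The cosine accounted for little of this, with an amplitude of 0.13 ± 0.22 (SE, adjusted p = 0.91 by limma) and a peak time that was not defined (ZT13.2 ± 7.2 h). The amplitude was 0.07 without ZT14 and 0.47 without ZT22. The step between ZT14 and ZT18 was about the same in both metallothioneins, -0.70 for Mt1 and -0.69 for Mt2, whereas the step up to ZT22 was larger in Mt2 (3118 units at ZT22 and 1459 at ZT18) than in Mt1 (691 units at ZT22 and 596 at ZT18). Their correlation over the 7 arrays was r = 0.47, below that of Mt2 with Zbtb16, r = 0.77.

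**Figure D2:**
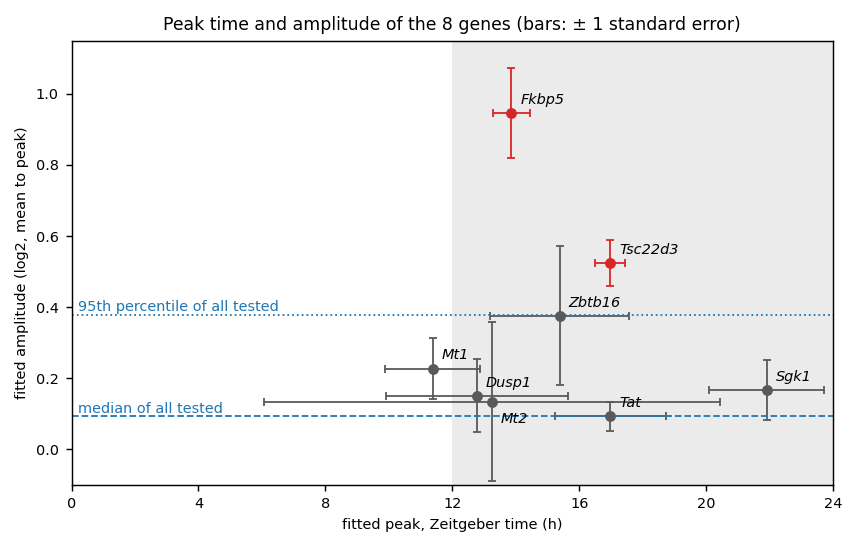
Fitted peak in Zeitgeber time (horizontal axis, hours) and fitted amplitude (vertical axis, log2, from mean to peak) of the 8 genes, with bars of 1 standard error and the dark phase in grey. Fkbp5 (0.95) and Tsc22d3 (0.52), in red, are those with an adjusted p under 0.05. The dashed and dotted blue lines mark the median and the 95th percentile of all tested probe sets, and the wide bar of Mt2 shows a peak time that was not defined.

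The sequence around the transcription start was searched on both strands for 5 short motifs. The windows are those of RefSeq on GRCm38.p6, from 250 bases before to 50 bases after each start. They exist for 7 of the 8 genes, in 14 windows, and Zbtb16 had none in the table. The exact palindromic glucocorticoid response element, AGAACA and TGTTCT separated by any 3 bases, occurred in 3 of all 32851 windows (0.00913%). One of them belongs to Sgk1, at chr10:21993640-21993939 on the plus strand, where it spans positions -189 to -175 from the start. It is shown because it is the only such match among the 8 genes, although the Sgk1 signal did not follow the evening. Sgk1 has several annotated starts, and the windows of its other starts held no such match. Which of these starts was used in liver was not examined. Capitals mark the element.
Sgk1: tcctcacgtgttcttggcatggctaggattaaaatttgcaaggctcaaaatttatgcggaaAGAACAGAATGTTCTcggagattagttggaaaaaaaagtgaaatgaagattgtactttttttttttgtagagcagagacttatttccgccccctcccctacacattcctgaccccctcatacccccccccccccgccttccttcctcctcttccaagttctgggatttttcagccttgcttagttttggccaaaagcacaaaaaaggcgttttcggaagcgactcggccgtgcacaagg

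The half-site AGAACA alone, which the palindrome contains on both strands, was found in 19.0% of all windows, and among the 8 genes in 3 windows of Sgk1 and 1 of Tsc22d3. Both of these genes have several windows, which gives more places for a match. The Fkbp5 window at chr17:28486100-28486399 on the minus strand held neither the palindrome nor the half-site, and that of Tat held none of the 5 motifs. The lack of a match says only that these letters are not within these windows. The Fkbp5 window, shown because Fkbp5 had the largest rhythm, held 1 E-box CACGTG, the binding motif of clock factors, which was present in 7.15% of windows. Capitals mark the E-box. Dusp1 and the same Sgk1 window also held 1 E-box each, and the Dusp1 window held the only cAMP response element TGACGTCA of the 8 genes (1.79% of windows).
Fkbp5: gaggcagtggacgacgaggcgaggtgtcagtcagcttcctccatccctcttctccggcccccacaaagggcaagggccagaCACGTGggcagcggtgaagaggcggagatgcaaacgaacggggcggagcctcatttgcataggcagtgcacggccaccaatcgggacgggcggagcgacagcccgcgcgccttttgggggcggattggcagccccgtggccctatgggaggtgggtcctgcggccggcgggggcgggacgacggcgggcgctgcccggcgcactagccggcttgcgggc

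The core of the metal response element, TGCACNC or TGCGCNC, occurred in 25.7% of windows at least once and in 1.97% at least 3 times. The Mt1 window at chr8:94178839-94179138 held 3 matches and the Mt2 window at chr8:94172368-94172667 held 4, both on the plus strand of the chromosome. They are shown because the neighbouring genes had different profiles. Capitals mark the cores, and in Mt2 the last 2 are read on the opposite strand. The Mt1 cores at positions 2 to 8 and 20 to 26 and the Mt2 core at 4 to 10 lie after the start. The Dusp1 window and the Sgk1 window at chr10:21994416-21994715 held 1 match each.
Mt1: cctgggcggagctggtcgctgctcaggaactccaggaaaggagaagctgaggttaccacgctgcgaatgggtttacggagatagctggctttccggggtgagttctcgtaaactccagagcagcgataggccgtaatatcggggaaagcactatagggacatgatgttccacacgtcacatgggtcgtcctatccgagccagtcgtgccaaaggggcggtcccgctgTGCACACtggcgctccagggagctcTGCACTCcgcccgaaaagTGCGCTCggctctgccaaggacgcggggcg
Mt2: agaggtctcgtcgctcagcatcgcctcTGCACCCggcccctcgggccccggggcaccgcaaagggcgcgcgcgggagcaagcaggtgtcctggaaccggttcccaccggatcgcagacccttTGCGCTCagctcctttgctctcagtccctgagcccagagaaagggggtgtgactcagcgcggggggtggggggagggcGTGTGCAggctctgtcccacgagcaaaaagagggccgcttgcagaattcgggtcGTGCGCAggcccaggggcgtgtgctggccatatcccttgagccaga

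To set the 8 genes beside the evening window, the mean of ZT10 and ZT14 was compared with the mean of the other 5 arrays. Their values were higher in the evening in 7 of 8 genes, against 51.8% of all tested probe sets, and the median difference was 0.25 in log2 against 0.004. None of the 8 passed an adjusted p of 0.05 in either direction, whereas 0.389% of tested probe sets were called higher in the evening and 0.961% lower. At an unadjusted p under 0.05, 2 of the 8 genes passed, Fkbp5 and Mt1, against 2017 of the 12076 probe sets.

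Fkbp5 averaged 9.06 on the evening arrays and 7.72 on the other arrays, a difference of 1.33 ± 0.36 (SE, limma, adjusted p = 0.12) or 2.52-fold. With 1 array left out it was between 0.77 (without ZT14) and 1.90 (without ZT10). Mt1 averaged 9.82 on the evening arrays and 9.37 on the others, and its difference of 0.44 ± 0.08 was smaller but nearer to the threshold (adjusted p = 0.056). The 2 evening values of Mt1 lay above all 5 other values, and so did those of Fkbp5. How many of all tested probe sets show the same separation was not counted. Of these, 17.9% were highest at ZT10 and 18.4% at ZT14. With the expression minimum raised to 170 units, the adjusted p of Mt1 was 0.046, and with ZT18 counted as evening it was 0.55.

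Zbtb16 averaged 9.89 in the evening and 9.30 on the other arrays, a difference of 0.60 ± 0.31 (SE, adjusted p = 0.38 by limma), and its evening values overlapped the others through ZT22. The differences of Dusp1 (0.26 ± 0.16), Mt2 (0.25 ± 0.35) and Tsc22d3 (0.24 ± 0.31) were each within 2 standard errors of 0. Tat (0.03 ± 0.08) and Sgk1 (-0.08 ± 0.15) were nearest to 0. For Tsc22d3 the contrast turned to -0.08 without ZT14, since its high values lay at ZT14 and ZT18. The Kupffer cell markers moved the opposite way, with 0 of 6 higher in the evening, and their part in these differences was not tested.

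**Figure D3:**
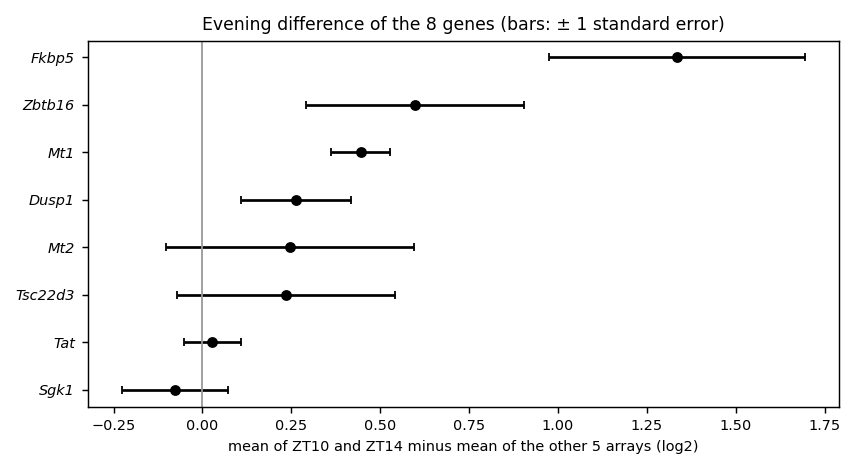
Mean log2 signal of ZT10 and ZT14 minus the mean of the other 5 arrays (horizontal axis) for each of the 8 genes, with bars of 1 standard error and a grey line at 0. Fkbp5 (1.33) lies farthest right with a wide bar, Mt1 (0.44) has a narrow one, and Sgk1 (-0.08) alone lies left of 0.

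The 8 genes had wider profiles than the array as a whole, and differed in when they moved. Their median range over the arrays was 0.86 in log2, against 0.31 for all tested probe sets, and 4 of them (Fkbp5, Tsc22d3, Zbtb16 and Mt2) spanned at least 1, against 4.27% of probe sets. The highest array was ZT10 for Dusp1, ZT14 for Fkbp5, Zbtb16 and Mt1, ZT18 for Tsc22d3 and Tat, and ZT22 for Sgk1 and Mt2. Between ZT06 and ZT10, 7 of the 8 had a higher second value, all but Mt2, against 45.8% of tested probe sets.

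Only in the step from ZT22 to ZT26 did all 8 genes move the same way. All 8 were lower at ZT26 than at ZT22, by 0.10 for Mt1 up to 1.38 for Mt2, while 50.9% of tested probe sets were higher. With ZT02, the other array at that clock time, the fall from ZT22 was not shared by all. Dusp1 was 10.80 at ZT22 and 11.06 at ZT02, Tat 13.45 and 13.47, and Mt1 9.43 at both. Fkbp5, Tsc22d3, Zbtb16, Sgk1 and Mt2 were lower at ZT02 than at ZT22. ZT26 was the lowest array of 6 genes, all but Sgk1 and Mt1. How many of all tested probe sets were lowest at ZT26 was not counted, and 19.2% were highest there. All 8 were also lower at ZT26 than at ZT02, the same clock time a day earlier, whereas 63.2% of tested probe sets were higher. The difference was -0.63 for Dusp1, -0.54 for Mt2, -0.35 for Tsc22d3, -0.23 for Sgk1, -0.21 for Fkbp5, -0.18 for Tat, -0.09 for Mt1 and -0.06 for Zbtb16. For Dusp1, Mt2 and Tsc22d3 it exceeded 0.34, the size that 95% of tested probe sets stayed under. With 1 pool at each time, a step between arrays cannot be tested.

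Of 12 tested genes that handle the receptor and its ligand, 1 was called rhythmic (5 at an unadjusted p under 0.05), and the evening contrast called none in either direction (0 at an unadjusted p under 0.05, limma). Over all tested probe sets the shares at an unadjusted p under 0.05 were 25.7% by the cosine and 16.7% by the evening contrast. A single call among 12 does not set these genes apart from the 4.47% called over the array. Nr3c1, the glucocorticoid receptor itself, had an amplitude of 0.06 ± 0.03 (SE, adjusted p = 0.53 by limma). The called gene was H6pd, which supplies NADPH for the enzyme that regenerates active hormone, with an amplitude of 0.29 and a peak at ZT4.4 (limma, adjusted p = 0.038). The widest profile of the list, named after its values were seen, was that of the chaperone Hsp90aa1, at 10.12 on ZT10 and 11.90 on ZT18 (adjusted p = 0.30 by limma). Its co-chaperones Stip1 and Fkbp4 had their lowest and highest values on the same arrays. Ptges3, another co-chaperone of the list, was also lowest at ZT10, but its range was only 0.25 and its highest array was ZT14. At ZT10 Fkbp5 was already above its ZT02 and ZT06 values.

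Other genes known to be induced by glucocorticoids peaked at very different times. Of 20 tested, 6 were called rhythmic, 2 with a peak in the light and 4 in the dark, beside 4.47% of all tested probe sets. At an unadjusted p under 0.05 in limma, 15 of the 20 passed by the cosine and 8 by the evening contrast. The shares over all tested probe sets were 25.7% and 16.7%. The median amplitude was 0.20 for the 8 genes, 0.40 for these 20 and 0.09 for all tested probe sets. The largest of the 6 called were Igfbp1, a binding protein of insulin-like growth factors (amplitude 1.88, peak ZT3.9), the clock repressor Per2 (1.53, ZT15.1), Pdk4, a kinase that inhibits pyruvate dehydrogenase (1.35, ZT23.8), and Lpin1, a phosphatidate phosphatase (1.08, ZT12.2). Lpin1 alone of the list was called in the evening contrast, with means of 11.35 in the evening and 9.51 on the other arrays (limma, adjusted p = 0.011). Of the 20, 13 were higher in the evening, beside 51.8% of all tested probe sets. Many of the 20 also respond to feeding, insulin or the clock.

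**Figure D4:**
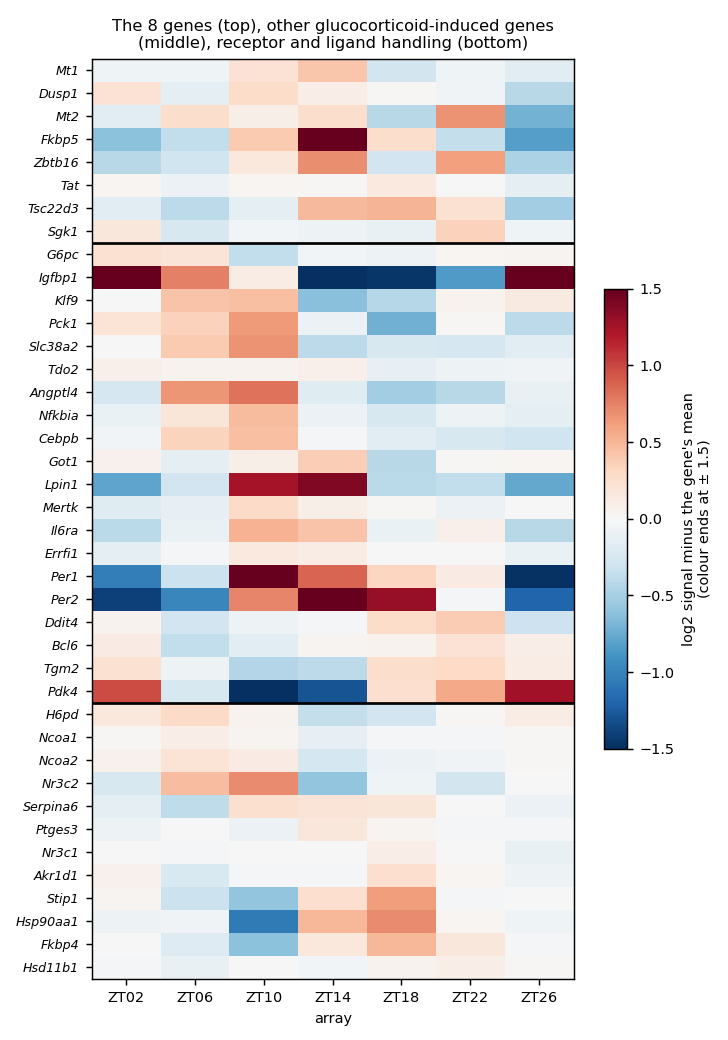
Log2 signal minus the gene's own mean over the 7 arrays (colour, ending at 1.5 either way) for the 8 genes (top block), 20 other glucocorticoid-induced genes (middle) and 12 genes of receptor and ligand handling (bottom), each block ordered by fitted peak, with arrays from ZT02 to ZT26 from left to right. Fkbp5 at ZT14 is the strongest cell of the top block, Igfbp1 and Pdk4 run opposite to Per1, Per2 and Lpin1, and Hsp90aa1, Stip1 and Fkbp4 in the bottom block are lowest at ZT10.

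The metallothioneins were also set beside genes of zinc and metal handling. Of 15 tested genes for zinc and metal handling, none was called by the cosine (5 at an unadjusted p under 0.05 in limma) and none by the evening contrast (3 at an unadjusted p under 0.05), beside the same 25.7% and 16.7% over all probe sets. The largest amplitudes were those of Slc30a10, a metal exporter (0.84, peak ZT21.8, adjusted p = 0.073 by limma), and Slc39a14, an importer of zinc, iron and manganese (0.28, ZT12.0, adjusted p = 0.061). The third metallothionein, Mt3, had an amplitude of 0.05 and Mt4 was below the expression minimum. Among 13 relatives of the 8 genes, such as Tsc22d2, Sgk2 and the enzymes that follow Tat in tyrosine breakdown, none was called by limma (2 at an unadjusted p under 0.05 by the cosine and 1 by the evening contrast), with a median amplitude of 0.08.

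Other programmes that share these genes were examined through further gene lists. Of 8 tested immediate early genes, Egr1 was called rhythmic (amplitude 1.39, peak ZT3.0). Myc was called higher in the evening (9.14 on the evening arrays, 7.83 on the other arrays, adjusted p = 0.040 by limma). Dusp1 was called by neither test. Like Dusp1, the tested Jun, Junb, Btg2, Zfp36, Dusp6 and Atf3 were lower at ZT26 than at ZT02, with differences from -0.10 (Atf3) to -0.50 (Btg2). Egr1 and Myc were higher at ZT26. Of 11 acute phase genes, none was called by the cosine (6 at an unadjusted p under 0.05). The evening contrast called 1 lower, Orm2 (9.50 on the evening arrays, 10.58 on the others, adjusted p = 0.045 by limma). At an unadjusted p under 0.05 it passed 8 of the 11, in either direction. Over all tested probe sets these unadjusted shares were 25.7% by the cosine and 16.7% by the contrast. By value 10 of the 11 were lower in the evening, the opposite sign to 7 of the 8 genes. Among markers of other liver cells, 4 of 6 Kupffer cell genes were called with peaks between ZT22.9 and ZT23.9, led by Vsig4 (0.36), and 1 of 5 stellate cell genes, Pdgfrb (0.36, peak ZT1.3). None of 6 endothelial, 2 tested lymphocyte and 1 tested erythroid gene was called, beside 4.47% of all tested probe sets. At an unadjusted p under 0.05 in limma, the cosine passed 6 of 6 Kupffer, 4 of 5 stellate and 2 of 6 endothelial genes. It also passed 2 of 2 lymphocyte genes and the 1 erythroid gene. The evening contrast passed 6, 3, 1, 2 and 0 genes of these lists, in the same order. By value, 0 of the 2 lymphocyte genes were higher in the evening. Of 7 lymphocyte markers, 3 (Cd79a, Ms4a1 and Cd2) were at or under 43 units.

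For each of the 8, the genes with the most similar profile were taken from the 516 tested probe sets with a range of at least 1 in log2, by Pearson's r over the 7 arrays. For Fkbp5 these were B4galt5 (r = 0.98), Homer2 (0.97) and Pex11a (0.97), with fitted peaks between ZT13.5 and ZT14.2. For Tsc22d3 they were Thrsp (0.94), Tmem120b (0.93) and S1pr5 (0.93), with peaks between ZT15.7 and ZT17.2. For Mt1 they were Lpin1 (0.90), Pnpla2 (0.90) and Sbk1 (0.88), so that the nearest profile to Mt1 was that of the listed gene called in the evening. The 3 nearest were looser for Zbtb16 (Tedc2, Mt2 and St3gal5, 0.77 to 0.82), Tat (Slc16a5, Cyp17a1 and Tsc22d3, 0.80), Dusp1 (Snord14e, Slc25a51 and Sftpa1, 0.75 to 0.78) and Sgk1 (Slc13a2, Ppard and Cyp26a1, 0.72 to 0.75). Mt2 had Zbtb16 at 0.77, and then Snora73b at 0.61 and Slc25a51 at 0.60. All these correlations rest on the same 7 arrays, and they were picked as the highest among the 516.

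Among the 8 genes themselves, Tsc22d3 and Tat were most alike (r = 0.80), followed by Zbtb16 and Mt2 (0.77), Fkbp5 and Mt1 (0.76) and Fkbp5 and Tsc22d3 (0.71). Sgk1 had the weakest ties, between -0.27 with Fkbp5 and 0.38 with Mt2. Both Fkbp5 and Mt1 were highest at ZT14 with ZT10 next, the pair of arrays around lights off. The share of all tested probe sets with this order was not counted.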

How the data were processed

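The authors pooled liver RNA of 5 mice per time and deposited log2 values for 35556 probe sets, for which the submitters' processing notes name RMA and Affymetrix Expression Console version 1.1.2637.26569. No raw intensity was used, and the precision is limited by 7 arrays. Probe sets were named from the platform annotation (21789 with a single symbol, 1621 with several, 12146 with none). The 12076 single-symbol probe sets whose mean exceeded 85 units were tested. A 24-h cosine and sine pair (4 residual degrees of freedom) and the contrast of ZT10 and ZT14 with the other 5 arrays (5) were fitted with lmFit and eBayes of limma 3.58.1 in R 4.3.3, with Benjamini-Hochberg adjustment over all 12076. The scripts were tested on simulated data. The 8 genes, 12 gene lists (129 genes, 121 with a single-symbol probe set, 106 tested) and tests were chosen with earlier results of these data known. From each list, up to 4 called genes with the largest amplitude were named (up to 2 where none was called). Promoter windows are RefSeq's. The array annotation gives no build, and its coordinates were not used. Alternatives were the one-period test of the study's methods, other filters, scales, normalizations and windows, and leaving out each array. Pol II and histone mark data were not used here.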

Additional observations from a re-analysis of the deposited data

How the results depend on the processing

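The number of calls moved with most choices. By the cosine, 540 probe sets and 2 of the 8 genes were called. Fisher's test for one period called 0 and 0 (2101 probe sets at an unadjusted p under 0.05), ZT02 and ZT26 averaged as 1 time called 93 and 1 (Tsc22d3), 24-h and 12-h terms called 353 and 1 (Fkbp5), no minimum level called 57 and 0, and natural-scale values called 68 and 0. Leaving out 1 array gave 13 to 312 probe sets and 0 to 1 of the 8. By the evening contrast, 163 probe sets and 0 of the 8 genes were called (2017 and 2 at an unadjusted p under 0.05). Counting ZT18 as evening called 0 probe sets, no minimum level 38 and natural-scale values 26. A minimum of 170 units called 1 of the 8 (Mt1), and leaving out 1 array gave 0 to 168 probe sets and 0 of the 8. A minimum of 170 units, quantile normalization, centring and a trended robust prior kept 2 of 8 cosine calls. Centring could change little, because the array medians already lay between 6.371 and 6.396. Quantile normalization moved the Fkbp5 amplitude only from 0.946 to 0.948. The evening difference changed sign for Mt2 with ZT18 as evening (-0.0393). With 1 array left out it ran between -0.0797 (without ZT14) and 0.551 for Tsc22d3, between -0.142 and 0.00337 (without ZT22) for Sgk1 and between -0.00578 (without ZT26) and 0.0676 for Tat. The causes were not tested. No paired analysis was possible because each time has 1 array. Each of the 8 genes has 1 probe set, so that no other probe set could be tried.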
